A study of Mus musculus with 4 samples.

Results

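Very long genes were defined by annotation alone, as autosomal protein-coding genes whose body was longer than 500 kb from start to end in GENCODE models of the mouse genome (GRCm38, the assembly named mm10). The table held 82325 accessible sites, of which 80465 were autosomal and 3636 lay fully within such a gene. The rule used no measured value. It gave 218 genes of 502 to 4435 kb, with a median length of 733 kb. Of these, 197 held at least 1 site and 21 held none. A site inside more than 1 long gene, as 41 were, took its distance from the gene with the nearest start. It entered the sums and site counts of each such gene. The genes just over the length limit were Edil3 (502 kb), Dock1 (503 kb) and Car10 (504 kb), and those just under it were Pde1c (499 kb), Dnm3 (496 kb) and Cacna1e (494 kb).

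The assay was ATAC-Seq. Tn5, a transposase, inserts sequencing adapters where DNA is exposed, and reads therefore collect over accessible regions. The cells were immortalized mouse embryonic fibroblasts (imMEFs) with a C57bl6 background. Lines with a HAT1 WT genotype (HAT1+/+) were compared with HAT1 KO lines (HAT1-/-), with 2 libraries per genotype and a separate line behind each. HAT1 is the acetyltransferase that modifies newly made histone H4 before it is placed on replicated DNA. All 4 lines, the WT lines included, came from mid-gestation embryos and carried SV40 T antigen from a transfected plasmid, and the KO lines had lacked HAT1 since the embryo. A line differs from another by embryo and by immortalization as well as by genotype, so the spread between 2 lines of a genotype holds all of these. The line names of WT replicate 1 and KO replicate 2 share a number, and the labels do not say whether these lines came from 1 litter. In bulk libraries, fewer cells with an open site and a less open site in each cell cannot be told apart.

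The deposited values were normalized counts, and they summed to between 8008069 and 8516263 per library. From the steps that scaling leaves in the low values, the depth was about 9420000 and 11400000 reads within sites in the WT lines, replicate 1 first, and 7830000 and 5680000 in the KO lines. KO replicate 2 was thus the shallowest library. The fibroblast label was checked on promoter sites within 3 kb of a start. All 12 fibroblast markers had one, with a median of 233 normalized counts over the markers, against 0 of 5 blood markers. Sites were also present at 4 of 4 neuronal markers (median 64.6), 3 of 3 endothelial (55.5), 3 of 4 epithelial (29.8) and 2 of 3 glial markers (43.5). The part of these in the values below was not tested. Sites on chromosomes 14, 15 and 19 were shifted in single libraries, by a median of 0.37 on the log2 scale in WT replicate 1 on chromosome 14, and by 0.22 and 0.47 in KO replicate 1 on chromosomes 15 and 19.

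Very long genes owe their size to large introns, and their introns can hold enhancers far from any promoter. Many of them encode proteins of the synapse, such as adhesion molecules, ion channels and receptors that neurons use and fibroblasts do not. In cells where they are silent, such genes often lie in late-replicating chromatin at the nuclear lamina, and several overlap common fragile sites, regions that break under replication stress.

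The central 300 bases of 6 sites are given first, because the results return to them. They include some of the called sites with high enough values to be named, 1 each in Lrrc4c, Zmat4, Magi2, Elmo1 and Nrg1. The last is the interior site with the highest value of all, in Trpm3. The bases are those of the plus strand of GRCm38.p6, and capitals mark letters that matched 1 of the motifs searched on either strand.
Lrrc4c chr2:97466387-97466686: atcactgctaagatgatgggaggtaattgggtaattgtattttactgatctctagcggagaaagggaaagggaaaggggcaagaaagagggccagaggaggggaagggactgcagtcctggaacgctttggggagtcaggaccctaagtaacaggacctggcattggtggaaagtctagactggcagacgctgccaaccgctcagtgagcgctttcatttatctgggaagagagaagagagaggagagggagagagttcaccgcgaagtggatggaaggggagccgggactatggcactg
Zmat4 chr8:23740664-23740963: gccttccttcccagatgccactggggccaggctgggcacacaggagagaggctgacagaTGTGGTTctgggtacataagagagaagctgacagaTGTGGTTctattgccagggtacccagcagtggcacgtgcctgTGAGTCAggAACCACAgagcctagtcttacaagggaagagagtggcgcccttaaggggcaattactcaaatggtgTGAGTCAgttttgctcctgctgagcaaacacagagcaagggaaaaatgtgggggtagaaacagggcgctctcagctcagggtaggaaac
Magi2 chr5:20634943-20635242: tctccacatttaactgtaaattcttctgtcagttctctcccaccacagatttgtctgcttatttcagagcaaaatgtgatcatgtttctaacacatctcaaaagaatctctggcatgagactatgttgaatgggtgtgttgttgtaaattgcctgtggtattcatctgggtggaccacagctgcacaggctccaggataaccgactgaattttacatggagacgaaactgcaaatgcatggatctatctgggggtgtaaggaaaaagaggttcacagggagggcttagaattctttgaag
Elmo1 chr13:20151845-20152144: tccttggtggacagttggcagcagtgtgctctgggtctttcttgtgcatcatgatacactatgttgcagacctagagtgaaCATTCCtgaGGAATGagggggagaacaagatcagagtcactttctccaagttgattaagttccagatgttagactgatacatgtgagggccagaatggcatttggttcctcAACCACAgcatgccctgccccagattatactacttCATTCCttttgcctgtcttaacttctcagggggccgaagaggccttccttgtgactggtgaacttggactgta
Nrg1 chr8:32844614-32844913: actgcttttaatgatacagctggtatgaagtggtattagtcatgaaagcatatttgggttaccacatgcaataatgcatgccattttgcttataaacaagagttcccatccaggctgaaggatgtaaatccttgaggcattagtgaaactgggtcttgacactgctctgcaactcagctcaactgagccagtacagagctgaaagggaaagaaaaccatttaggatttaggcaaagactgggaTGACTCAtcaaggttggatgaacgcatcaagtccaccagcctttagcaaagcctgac
Trpm3 chr19:22916952-22917251: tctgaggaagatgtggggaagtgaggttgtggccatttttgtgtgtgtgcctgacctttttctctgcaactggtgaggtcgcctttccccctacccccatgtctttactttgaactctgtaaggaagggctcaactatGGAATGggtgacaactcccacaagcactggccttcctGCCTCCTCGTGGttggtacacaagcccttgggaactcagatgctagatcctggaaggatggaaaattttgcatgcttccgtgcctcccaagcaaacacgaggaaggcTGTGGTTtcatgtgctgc
The Zmat4 site held the letters TGANTCA of AP-1, a family of factors that open enhancers in fibroblasts, at 2 places, and the letters TGTGGTT of RUNX at 3. The Nrg1 site held 1 AP-1 match. The Elmo1 site held 3 matches to GGAATG of TEAD and 1 to RUNX, and the Trpm3 site held 1 match each to CTCF, TEAD and RUNX. The Lrrc4c and Magi2 windows held none of these letters. Of the named called sites not printed, those in Gm37240 and Negr1 and another in Lrrc4c each held 1 AP-1 match.

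Very long genes were sparsely accessible. They held 19.6 sites per Mb, against 40.2 per Mb in genes of 100 to 500 kb. Their sites had a median of 38.3 normalized counts, against 45 in genes of 100 to 500 kb and 52 over all sites. A start of any annotated transcript lay within 3 kb of 17.2% of the sites (624 of 3636). The share was 23% in genes of 100 to 500 kb and 35.3% of autosomal sites. For 259 of the 624 the nearest start belonged to the host gene, and for 365 to another gene. Exons of the host gene held 209 sites. The median distance from the host gene start was 451 kb.

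Some of the longest models were not single genes in the usual sense. In 7 models, 3 or more other protein-coding genes lay in full, among them Gm20388 (4435 kb, 71 genes inside, 389 sites) and the Fgfr2 model (2961 kb, 29 genes inside, 147 sites). Without these models 2985 sites remained, at 17 per Mb and with a median of 34.5 normalized counts. The site calls and the share of sites in domains, below, are also given without them, an alternative added after the data had been seen.

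The number of sites varied greatly among host genes. The 21 without a site included Csmd1, Csmd2, Cntn4, Cntn5, Ntm, Grm8, Grid1, Dpp10 and Dab1, which encode proteins of neurons. The rest were Cadps2, Clstn2, Cntnap5c, Dpyd, Egfem1, Iqcm, L3mbtl4, Skint5, Sorcs3, Thsd7b, Tmem132d and Unc5d. Genes for synaptic proteins were also found among those with many sites, such as Dlg2 (38 sites) and Dlgap2 (32). Among single genes the most sites were found in Pde4d, a cAMP phosphodiesterase (78 sites), Macrod2, a hydrolase acting on ADP-ribose (50), Nav2 (45), the transcription factor gene Foxp1 (44), Mast4, a kinase (43), and Rbms3, an RNA-binding protein gene of connective tissue (43). Whether a gene had a site within 1 kb of its annotated start went along with this number. The 121 genes with such a site held a median of 16 sites and of 2.27 sites per 100 kb, and 4 of them held none. The 97 genes without one held a median of 5 sites and of 0.572 per 100 kb, and 17 of them held none. The medians hide exceptions: of the site-rich genes named above, Pde4d, Nav2 and Rbms3 had no such site. The annotated start is the outermost 5' end of the model, so a gene with only inner promoters counts as lacking one. This split was made after the values had been seen.

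Next, each host gene was compared between genotypes. The values of all sites fully within a gene were summed per library and tested with limma over all 4483 autosomal and X-linked protein-coding genes with 3 or more sites, of which 172 were very long. No gene passed an adjusted p of 0.05, and the smallest adjusted p of a very long gene was 0.472. At an unadjusted p under 0.05, 13 very long genes were lower in KO (7.56%, against 1.38% of all genes tested) and 4 were higher (2.33%, against 1% of all genes). At an unadjusted p under 0.01 there were 7, all lower, while 0.535% of all genes tested (24) passed it. The summed values of both KO lines lay below those of both WT lines in 33 of the 172 genes (19.2%, against 11.6% of all genes) and above them in 29 (16.9%, against 16.6%). Overlapping models were counted separately in all counts of genes. The models Gm37013 and Gm37388 (21 sites each, with the same sums) and Gm42416 (22 sites) overlap, and all are among the 33. The median log2 fold change of the 172 genes was -0.01.

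Gabrg3, which encodes a subunit of the GABA-A receptor, had the lowest fold change. Its 6 sites lay 249 to 417 kb from the start on chromosome 7. They summed to 132 and 182 normalized counts in WT replicates 1 and 2, and to 10 and 18 in KO replicates 1 and 2. Both KO lines were far below both WT lines, and no KO value at any of the sites exceeded 6. The log2 fold change was -3.43 (SE 0.49, unadjusted p = 0.000316, adjusted p = 0.472 by limma). At its strongest site in WT, 249 kb in, the values were 73 and 26 in WT and 0 and 5 in KO. The WT lines did not share a pattern within the gene, since WT replicate 2 had the higher values at the 4 sites beyond 400 kb and WT replicate 1 at the 2 nearer sites.

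Lrrc4c, which encodes a netrin-G ligand at synapses, held 12 sites over 1313 kb on chromosome 2. Their sum was 426 and 837 normalized counts in WT replicates 1 and 2, and 109 and 202 in KO replicates 1 and 2. Both KO lines were lower, at 10 of the 12 sites taken singly as well, and the WT lines themselves differed. The log2 fold change of the sum was -2.00 (SE 0.42, unadjusted p = 0.00263, adjusted p = 1 by limma).

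Negr1, an adhesion molecule of the IgLON family, summed over 13 sites to 622 and 402 in WT and to 78 and 206 in KO. Each of the 13 sites was lower in KO on average, and at 10 of them both KO lines lay below both WT lines. Its log2 fold change was -1.97 (SE 0.48, unadjusted p = 0.0054 by limma). Without WT replicate 1 it was -1.66 and its unadjusted p passed 0.05 no longer.

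Grm7, a metabotropic glutamate receptor gene, summed over 8 sites to 214 and 367 in WT and to 77 and 98 in KO. Both KO lines were lower at 7 of the 8 sites, and the exception was the site nearest the gene end, 919 kb in, with 29 and 10 in WT and 34 and 20 in KO. For the sum, the log2 fold change was -1.68 (SE 0.35, unadjusted p = 0.00241 by limma). When the log2 values of its sites were averaged instead of summed, the unadjusted p no longer passed 0.05 for Grm7 or for Gabrg3.

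**Figure D1:**
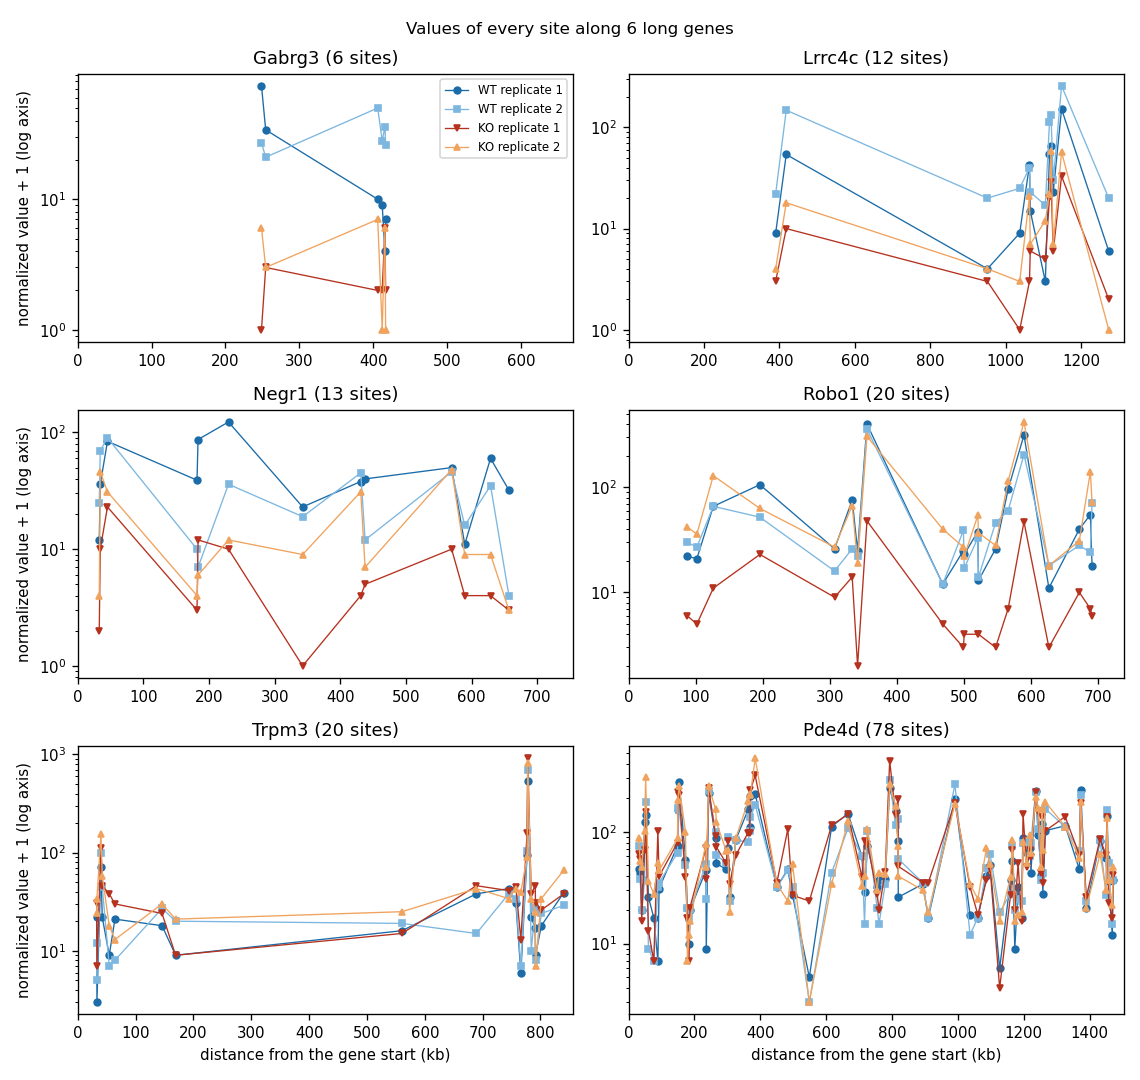
Normalized value plus 1 of every site (log axis) against its distance from the host gene start in kb, for 6 long genes, with 1 line per library (WT replicates 1 and 2, KO replicates 1 and 2). Both KO lines run low along Gabrg3, Lrrc4c and Negr1, KO replicate 1 alone runs low along Robo1, and the 4 lines intertwine along Pde4d.

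In 6 of the 155 very long genes with 5 or more sites, the mean log2 value lay below the WT mean by over 1 in each KO line (3.87%, against 0.501% of all 2397 genes with as many sites). Besides these 4, they were Sema6d, a semaphorin gene, and Ptprn2, a gene for a phosphatase-like protein of secretory granules. The sums of Sema6d were 471 and 601 in WT and 245 and 343 in KO. Those of Ptprn2 were 223 and 459 in WT and 198 and 119 in KO, where WT replicate 1 was close to KO replicate 1. Both were named after their values had been seen.

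The lines were then read one by one. Over all sites in very long genes, the mean log2 value differed from the WT mean by -0.36 in KO replicate 1 and by 0.02 in KO replicate 2. Over all sites of the table the corresponding differences were -0.08 and -0.02. Relative to all sites, the long-gene sites stood at -0.48 and -0.39 on the log2 scale in WT replicates 1 and 2, and at -0.71 and -0.39 in KO replicates 1 and 2. The genotypes therefore differed by -0.11, with an exact two-sided permutation p of 1 over the 4 libraries, in a design whose smallest p is 0.333. Of the 155 genes with 5 or more sites, KO replicate 1 lay below the WT mean by over 1 in 35 (22.6%, against 3.96% of all 2397 genes with as many sites), and KO replicate 2 in 8 (5.16%, against 1.67%). Both KO lines were below the WT mean in 55 (35.5%, against 26.3%) and both above it in 30 (19.4%, against 22.8%). KO replicate 1 was below and KO replicate 2 above it in 58 (37.4%, against 24.1%), and the reverse held in 12 (7.74%, against 26.8%).

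KO replicate 1 lay below the mean of the other 3 libraries by over 2 on the log2 scale in 16 of the 155 very long genes (10.3%). Among all 2397 genes with 5 or more sites it did so in 28 (1.17%), the 16 included. KO replicate 2 did so in 0 of the 155 and in 3 of all genes (0.125%), and WT replicate 1 in none. WT replicate 2 did so in 1, Erbb4, among all genes (0.0417%). In the other direction, WT replicate 1 lay above by over 2 in 1 very long gene, Ptprt (0.0417% of all genes), WT replicate 2 in 2, Gabrg3 and Lrrc4c (0.0834%), KO replicate 1 in 0 and KO replicate 2 in 0 (0.0834%). The 16 genes were Cacna2d3, Cntnap2, Etl4, Gabrg3, Hs6st3, Lingo2, Naaladl2, Negr1, Nkain3, Pcdh9, Pkhd1, Ptprd, Ptprt, Robo1, Sdk1 and Tenm3.

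Pcdh9, a protocadherin, was the most extreme. Its 11 sites summed to 267 and 416 normalized counts in WT, to 14 in KO replicate 1 and to 491 in KO replicate 2. No site exceeded 5 in KO replicate 1, while KO replicate 2 was between 20 and 83 at each. The gene lies on chromosome 14, where WT replicate 1 was shifted up. Its sum had a log2 fold change of -1.96 (SE 1.44, unadjusted p = 0.22 by limma), and without KO replicate 1 it was 0.56.

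Robo1, a receptor for the axon guidance protein Slit, showed the same split on chromosome 16. Its 20 sites summed to 1394 and 1144 in WT, to 201 in KO replicate 1 and to 1673 in KO replicate 2. KO replicate 1 had the lowest value of the 4 libraries at 20 of the 20 sites. The strongest site, 355 kb in and within 3 kb of an annotated start, had 399 and 357 in WT, 47 in KO replicate 1 and 305 in KO replicate 2. Its sum had a log2 fold change of -1.12 (SE 0.87, unadjusted p = 0.244 by limma), and it was 0.41 without KO replicate 1.

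Tenm3, a teneurin, and Cntnap2, a neurexin-related adhesion molecule, followed. The sums of Tenm3 were 922 and 737 in WT, 138 in KO replicate 1 and 1506 in KO replicate 2. Those of Cntnap2 were 444 and 434 in WT, 88 in KO replicate 1 and 566 in KO replicate 2. In both, KO replicate 2 had the highest sum and KO replicate 1 the lowest. Without KO replicate 1 the log2 fold change of Tenm3 was 0.87.

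With KO replicate 2 left out, 12 very long genes passed an adjusted p of 0.05 by limma, all of them lower in KO replicate 1, and 24 of all genes did so (0.535%). They were Robo1, Lingo2, Pcdh9, Tenm3, Cacna2d3, Cntnap2, Gabrg3, Mgat4c, Nkain3, Etl4, Pkhd1 and Negr1. The single KO library is there assumed to vary like the WT libraries. With KO replicate 1 left out instead, none passed.

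**Figure D2:**
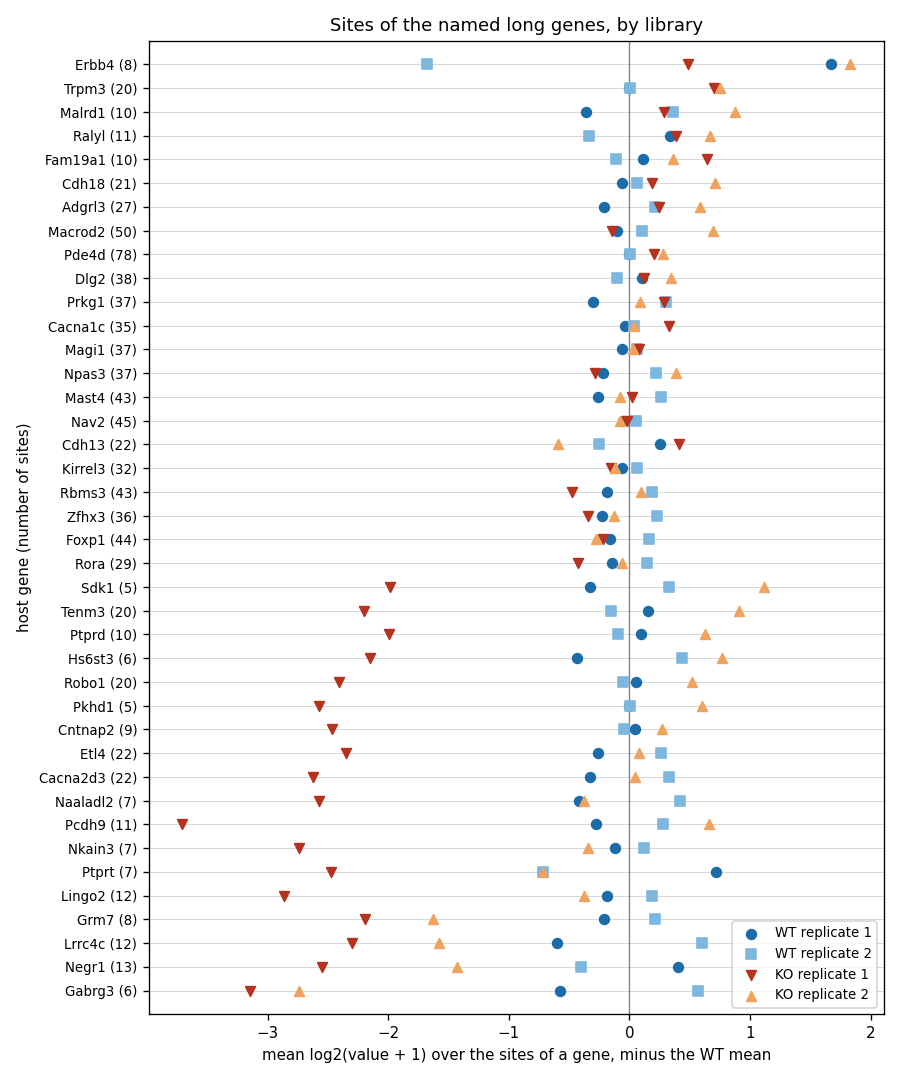
Mean log2(value + 1) over the sites of each named host gene in each library, minus the mean of both WT libraries, so that the WT points mirror each other around 0. Numbers in brackets are sites per gene, and models holding 3 or more other genes are left out. KO replicate 1 stands alone at the left in 14 genes from Sdk1 down to Lingo2, while both KO lines are at the left in Grm7, Lrrc4c, Negr1 and Gabrg3.

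On average, KO replicate 1 was lower where sites were sparser. Exceptions among the genes listed above were Tenm3 (3.245 sites per 100 kb), Robo1 (2.711), Cacna2d3 (2.693) and Etl4 (2.442). In the 67 genes with under 1 site per 100 kb, the sites had medians of 33 and 22 normalized counts in WT replicates 1 and 2, of 6 in KO replicate 1 and of 30 in KO replicate 2. The mean log2 difference from WT was -1.55 in KO replicate 1 and -0.03 in KO replicate 2. In the 74 genes with 1 to 3 sites per 100 kb these differences were -0.56 and 0.05, and in the 56 genes with more than 3 they were -0.09 and 0.01. The bounds of these density classes were chosen with the values known.

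**Figure D3:**
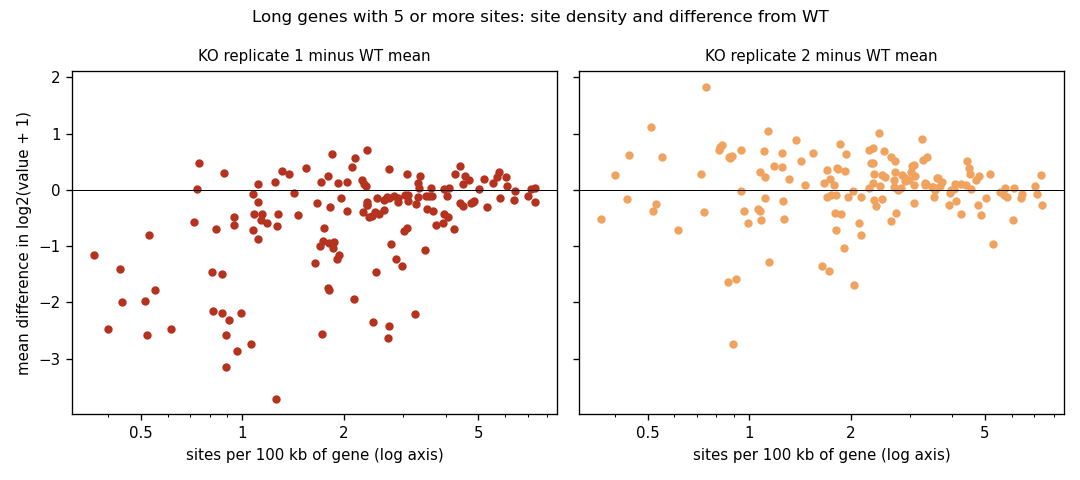
Mean log2(value + 1) difference from the WT mean in KO replicate 1 (left) and KO replicate 2 (right) against sites per 100 kb of gene (log axis), 1 point per long gene with 5 or more sites, without models that hold 3 or more other genes. In KO replicate 1 most points below -2 lie at low density, and in KO replicate 2 the points spread to both sides of 0.

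The difference was also read within quartiles of site level over all sites. The level was the mean of all 4 libraries, KO replicate 1 included, so part of the trend across quartiles is built in. Among sites in the lowest quartile (a mean of at most 27.8 normalized counts), KO replicate 1 differed from the WT mean by -0.70 in very long genes (1319 sites) and by -0.29 at the other autosomal sites (18764). In the next quartile, up to 52 normalized counts, the differences were -0.31 and -0.09. In the third they were -0.15 and 0.01, and in the highest 0.08 and 0.09. For KO replicate 2 they were -0.075 and -0.10 in the lowest quartile, and 0.16 and 0.08 in the highest. KO replicate 1 read 0 at 24 long-gene sites, against 5 in KO replicate 2 and 1 in each WT library. Over all 82325 sites it also had the most zeros, 139, against 69 in KO replicate 2. WT replicates 1 and 2 had 3 and 13 there.

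Some very long genes had higher values in KO. Trpm3, a cation channel gene on chromosome 19, summed over 20 sites to 1024 and 1205 normalized counts in WT and to 1691 and 1589 in KO. Both KO lines lay above both WT lines in the sum, at 11 of the 20 sites and at the strongest interior site of all long genes, 778 kb in, with 534 and 686 in WT and 916 and 812 in KO. On the log2 scale the sum differed by 0.56 (SE 0.16, unadjusted p = 0.01, adjusted p = 1 by limma). All of chromosome 19 was shifted up in KO replicate 1, and with each chromosome centred the fold change was 0.35 and no longer passed an unadjusted p of 0.05, nor did the 0.44 found without WT replicate 1.

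Cdh18, a cadherin gene on chromosome 15, summed over 21 sites to 1290 and 1384 in WT and to 1657 and 2091 in KO. Its log2 fold change of 0.48 (SE 0.17, unadjusted p = 0.0265 by limma) was 0.39 with chromosomes centred and then no longer passed an unadjusted p of 0.05. Fam19a1, a gene for a secreted chemokine-like protein, summed over 10 sites to 458 and 411 in WT and to 681 and 559 in KO, with a log2 fold change of 0.51 (SE 0.19, unadjusted p = 0.0376). In both genes the KO lines lay above the WT lines. The unadjusted p passed 0.05, of the 4 fits that each left out 1 library, only in that without KO replicate 1 for Cdh18 and in that without KO replicate 2 for Fam19a1.

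Erbb4, a receptor for neuregulins, had the highest log2 fold change of all, 1.35, with WT lines far apart. Its 8 sites summed to 431 in WT replicate 1, 40 in WT replicate 2, 232 in KO replicate 1 and 494 in KO replicate 2. WT replicate 2 was apart from the other libraries. The SE was 1.02 and the unadjusted p 0.233 by limma, and the fold change was -0.35 without WT replicate 2 and 3.05 without WT replicate 1.

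Host genes were then grouped by role. Among adhesion and guidance genes, 37 were over 500 kb, 32 held a site and 25 were tested. None passed the adjusted p, 3 were lower and 1 higher at an unadjusted p under 0.05, and the median log2 fold change was -0.47. Their 366 sites differed from the WT mean by -1.06 in KO replicate 1 and by 0.01 in KO replicate 2. Among channels and receptors, 17 were over 500 kb and 11 were tested. None passed the adjusted p, 2 were lower and 1 higher at an unadjusted p under 0.05, the median was -0.33, and the differences of their 142 sites were -0.92 and -0.08. Both groups were thus low in KO replicate 1 and near WT in KO replicate 2.

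Signalling genes (29 over 500 kb, 25 tested) had a median log2 fold change of -0.08, with 3 lower and 1 higher at an unadjusted p under 0.05 and none past the adjusted p. Genes for transcription factors and RNA-binding proteins (14 over 500 kb, all tested) had a median of 0.09, with none at either threshold. Their 364 sites differed from WT by -0.28 in KO replicate 1 and 0.05 in KO replicate 2. The genes known as common fragile sites (21 over 500 kb, 17 tested) had a median of -0.28, with 1 lower at an unadjusted p under 0.05 and none past the adjusted p, and their 322 sites differed by -0.59 and 0.04. Lists share genes, and over all 4483 genes 1.38% were lower and 1% higher at that threshold.

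Some of the genes with many sites in these groups had small differences. Cacna1c, the main subunit of a cardiac and neuronal calcium channel, summed over 35 sites to 2764 and 3052 in WT and to 3658 and 3338 in KO (log2 fold change 0.27, SE 0.13). Pde4d summed to 5663 and 5558 in WT and to 6446 and 6864 in KO (0.25, SE 0.11). Both KO lines lay above both WT lines in each, and neither passed an unadjusted p of 0.05. For Foxp1 the sums were 3891 and 4799 in WT and 4233 and 4189 in KO, and the genotypes overlapped. Other genes with many sites differed more, such as Cacna2d3, a calcium channel subunit gene, whose 22 sites summed to 738 and 929 in WT, to 160 in KO replicate 1 and to 837 in KO replicate 2.

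Sites were also tested one by one. The call rule had the thresholds of the study, an unadjusted p under 0.01 together with a log2 fold change of 1 or more in either direction. The study used them on primary fibroblasts, with 3 embryos per genotype and another method (DiffBind), so its calls are not comparable with these. Of the 3636 sites, 19 were called lower in KO (0.523%, against 0.302% of all sites) and 3 higher (0.0825%, against 0.0705%). No site of the table had an adjusted p under 0.05 by limma, and 153 of the 3636 (4.21%) had an unadjusted p under 0.05, against 3.13% of all sites. Both KO values lay below both WT values at 16.5% of the sites (14.3% of all sites) and above at 13.5% (14.6%). Without the models that hold other genes, 18 of 2985 sites were called lower (0.603%) and 3 higher (0.101%). The median log2 fold change was -0.04 over the long-gene sites and 0.01 over all sites.

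The 22 called sites lay in 16 host genes, with 3 each in Lrrc4c and Negr1 and 2 each in Zmat4 and Nav3. The call with the smallest p was in Magi2, a scaffold protein of cell junctions, at chr5:20634724-20635460. This site was intronic, 1408 kb from the gene start, and had 110 and 114 normalized counts in WT and 26 and 23 in KO. Replicates were close in both genotypes, with means of 112 ± 2.83 (SD, n = 2) in WT and 24.5 ± 2.12 (SD, n = 2) in KO. KO and WT differed by a log2 fold change of -2.15 (SE 0.32, unadjusted p = 0.000457, adjusted p = 1 by limma).

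The called site of Elmo1, a regulator of Rac signalling, lay 61.4 kb in, at chr13:20151704-20152285, and had 109 and 101 in WT and 29 and 32 in KO. The higher called site of Zmat4, a zinc finger gene, lay 105 kb in, at chr8:23740486-23741140, and had 112 and 132 in WT and 47 and 45 in KO. Both KO values were below 50 and both WT values above 100 at each site. On the log2 scale they differed by -1.75 (SE 0.32) in Elmo1 and by -1.38 (SE 0.30) in Zmat4.

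The called site of Lrrc4c with the highest values lay at chr2:97466200-97466872, 1148 kb from the gene start and 0.785 kb from the start of a shorter Lrrc4c transcript. It was the only called site within 3 kb of an annotated start. It had 151 and 257 normalized counts in WT and 32 and 56 in KO, and the log2 fold change was -2.19 (SE 0.41, unadjusted p = 0.00154 by limma). The genotypes did not overlap, though WT replicate 2 exceeded WT replicate 1 here as along the whole gene.

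Several other called sites had lower values. In Stpg2 the site lay 304 kb in and had 54 and 56 in WT and 6 and 8 in KO. In Dscam, an adhesion molecule of neurons, it lay 568 kb in and had 57 and 53 in WT and 12 and 9 in KO. Both KO values were far below both WT values at each site. In Negr1 the 3 called sites lay 45.3, 230 and 629 kb in, and the nearest of them had 83 and 89 in WT and 22 and 30 in KO. In Nav3, a gene for a microtubule-associated protein, the 2 called sites had 62 and 68 in WT against 19 and 15 in KO, and 99 and 79 against 42 and 27. The called site with the highest mean value, in Ctnna3, an alpha-catenin gene, was also the 1 of the 22 that overlapped an exon of its host, and it had 189 and 227 in WT and 104 and 96 in KO.

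The 3 sites called higher in KO were in Nrg1, Cacna1c and Cdh18. In Nrg1, which encodes neuregulin ligands of the ErbB receptors, the site lay 39.3 kb in, at chr8:32844525-32845002, and had 27 and 9 in WT and 138 and 84 in KO (log2 fold change 2.70, SE 0.58). In Cacna1c it lay 112 kb in and had 76 and 80 in WT and 154 and 229 in KO. In Cdh18 it lay 818 kb in and had 29 and 39 in WT and 76 and 108 in KO. The KO lines were above the WT lines at all 3.

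**Figure D4:**
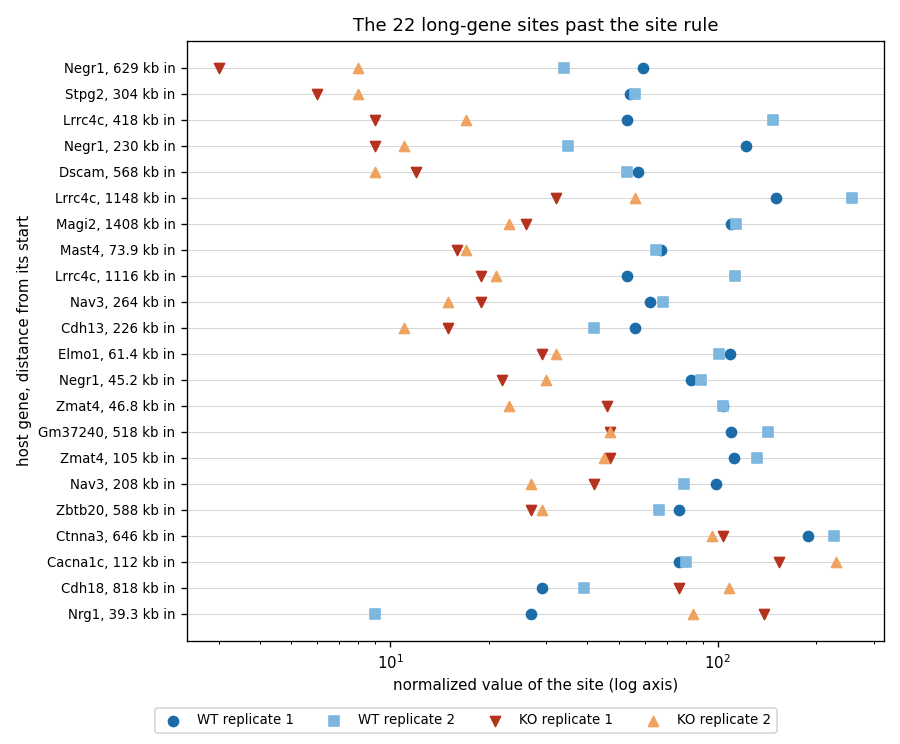
Normalized value (log axis) in each of the 4 libraries for the 22 called long-gene sites, labelled by host gene and distance from its start in kb, ordered by fold change. Both KO values lie left of both WT values in the upper 19 sites and right of them in the lower 3, which the call rule itself requires in part.

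Values were then read by distance from the start of the host gene. Only 88 sites lay fully inside within 10 kb of the start, because a promoter site that crosses the start is outside the rule. Their medians were 49 and 41 normalized counts in WT replicates 1 and 2, and 32 and 40 in KO replicates 1 and 2. In the 1607 sites over 500 kb from the start they were 42 and 44 in WT, and 39 and 44 in KO. KO replicate 1 differed from the WT mean by -0.44 in the bin from 0 to 10 kb, by -0.22 from 10 to 50 kb and by -0.32 over 500 kb. KO replicate 2 differed by -0.13, 0.05 and 0.04 in the same bins. KO replicate 1 was below WT in all 6 bins, with no order by distance.

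Interior sites (over 10 kb in and over 3 kb from any start) were set against the start sites in each library. The difference in mean log2 value was -0.31 and 0.05 in WT replicates 1 and 2, and -0.07 and 0.03 in KO replicates 1 and 2. The genotypes overlapped, and KO minus WT was 0.11 (exact two-sided permutation p = 1, smallest possible 0.333). In genes of 100 to 500 kb the same contrast was 0.05 (exact p = 1), with interior sites 0.41 to 0.62 below start sites in every library. Called sites were also spread along the genes: 0 of 88 in the first 10 kb, 3 of 191 from 10 to 50 kb, and 9 of 1607 over 500 kb in. Beside the 0, 5 of the 88 had an unadjusted p under 0.05 by limma.

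**Figure D5:**
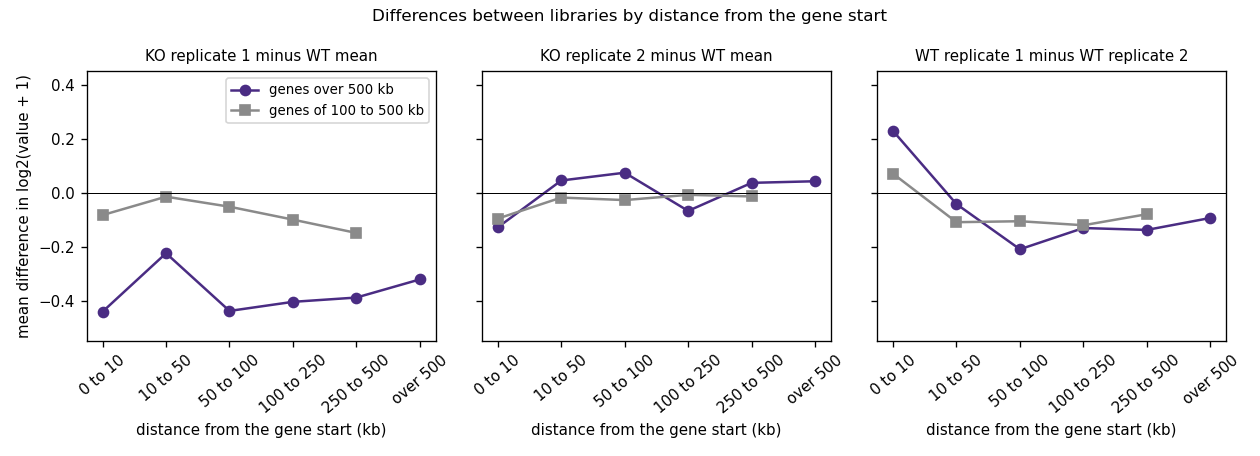
Mean difference in log2(value + 1) by distance from the gene start in kb, for KO replicate 1 minus the WT mean (left), KO replicate 2 minus the WT mean (middle) and WT replicate 1 minus WT replicate 2 (right), in genes over 500 kb and in genes of 100 to 500 kb. In the left panel the longer genes lie between -0.22 and -0.44 in every bin, and in the middle panel both lines stay closer to 0. In the right panel the longer genes lie at 0.23 from 0 to 10 kb and at -0.21 from 50 to 100 kb.

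Long-gene sites were placed relative to domains of lower accessibility in KO, found by the rule of the study (a mean log2 fold change under -0.58 over 25 consecutive sites, joined over gaps of up to 1 Mb). The study listed its own domains from primary fibroblasts. Of the 3636 sites, 408 (11.2%) lay in such a domain (13.0% without the models that hold other genes), against 3.74% of all autosomal sites and 2.93% of sites in genes of 100 to 500 kb. The same fold changes define the domains, so this is a description. The sites belonged to 43 of 170 domains and to 45 host genes, 18 of which (with 3 or more sites) lay in domains with all their sites. By group, 41.6% of the sites in channels and receptors and 28.7% of those in adhesion genes were in domains, against 5.77% in genes for transcription factors and RNA-binding proteins. When only sites with a mean at or above the median were used, 0.287% of long-gene sites and 0.21% of autosomal sites were in domains.

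The lines differed in which domains were low. In the domain that held the 28 long-gene sites of Negr1 and St6galnac3 on chromosome 3, KO replicate 1 differed from WT by -1.03 and KO replicate 2 by -0.57. In the domains of Cacna2d3, Robo1 and Etl4 the lines differed from WT by -1.98, -2.09 and -2.26 for KO replicate 1, and by 0.09, 0.07 and 0.10 for KO replicate 2. In those of Kalrn and of Opcml, an IgLON adhesion gene, KO replicate 2 was the lower line, at -1.09 and -1.47 against -0.42 and -0.26. A domain called from the mean of 2 lines was thus low in both, in KO replicate 1 alone or mainly in KO replicate 2.

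The DNA under the sites was described last. Over the central 200 bases, long-gene sites had a median GC content of 46% and a mean of 3.2 CpG dinucleotides, against 49% and 5.33 over autosomal sites. The AP-1 letters TGANTCA were present in 39.7% of long-gene sites (1442), in 32.5% of autosomal sites and in 21.6% of the long-gene sites within 3 kb of a start. Interior sites held them in 43.4% of cases in very long genes and in 40.1% in genes of 100 to 500 kb. The TEAD letters GGAATG were present in 22% of long-gene sites against 18.9% of autosomal sites, the RUNX letters TGTGGTT in 8.99% against 7.74%, and the CEBP letters TTGCNNCAA in 1.35% against 1.47%. A loose form of the CTCF core was present in 1.27% against 2.56%, and a strict form in 0.55% against 0.925%. The palindromic NFI motif matched 0 long-gene sites and 0.0348% of autosomal sites. Both strands were searched, and the strict CTCF form is contained in the loose one.

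Interior sites with and without the AP-1 letters were set side by side, with no test of the difference. The 1295 sites with them had a median log2 fold change of -0.05 and the 1691 without them -0.04. The differences from WT were -0.37 and -0.38 in KO replicate 1, and -0.01 and 0.07 in KO replicate 2. Called lower were 11 of the former (0.849%) and 7 of the latter (0.414%). Of all 22 called sites, 14 held the letters (63.6%), against 39.7% of long-gene sites and 43.4% of the interior ones. Of the 22, 21 were interior. The share among called sites of the whole table was not determined.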

How the data were processed

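ATAC-Seq was performed on 4 imMEF libraries, 2 HAT1 WT and 2 HAT1 KO. Per the study methods and the submitters' processing notes, read pairs were mapped by the authors onto mm10 (BWA 0.7.12), peaks came from MACS2 2.1.0 and occupancy was compared in DESeq2. The deposited table holds 1 value per merged region and library, headed as normalized counts. These are a score: the authors divided counts by a factor per library and rounded to whole numbers, so no count model was used. Read filters, the handling of multiply mapping reads and any Tn5 offset are not given in the sources used here. Long genes hold repeats, where such reads could change values. The authors' own comparison fills further deposited columns (raw and shrunken log2 fold changes, p-values with and without adjustment), and none of these was used.

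Sites were kept without a filter and joined to GENCODE vM21 models of GRCm38. Values were analysed as log2(value + 1), which understates changes at low sites, with limma 3.58.1 and its intensity trend in R 4.3.3, KO against WT, two-sided, over all 82325 sites. Gene sums were fitted over 4483 genes with 3 or more sites, so 25 long genes with fewer sites had no gene-level test. Adjusted p-values are Benjamini-Hochberg values over the whole table fitted. Exact permutation tests ran over the 4 libraries. The fits were tested on simulated data. Replicates were numbered in accession order, and no pairing was used. Depth was estimated from which whole numbers were frequent or absent among low values and is approximate. P-values measure only the spread between these lines. Sequences came from GRCm38.p6. Python 3.11.15, numpy 2.4.6 and pandas 2.3.3 were used.

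Named genes were the 10 with the most sites, the 6 lowest and 6 highest fold changes among genes with 5 or more sites, the 3 of each group with the most sites, any gene called, genes with 1 library apart by over 2 on the log2 scale, and the 3 on each side of the length limit. Named sites were the 6 strongest interior sites, up to 8 called sites with the smallest p at or above the median value, and the farthest site. Other genes were named after their values had been seen. The members, lists and tests were chosen with earlier results of these data known. Alternatives were other pseudocounts, scalings, filters, length limits, site assignments, thresholds and windows, and each library left out.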

Additional observations from a re-analysis of the deposited data

How the results depend on the processing

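With 2 libraries per genotype, several counts depended on single libraries. No paired analysis was possible because the line names share a number for only 1 pair, WT replicate 1 and KO replicate 2, and the labels do not say what it marks. Leaving out each library in turn, with a lone library assumed to vary like the others, gave 1 to 67 sites called lower (19 with all libraries), with 1 without either WT library, 16 without KO replicate 1 and 67 without KO replicate 2. Sites called higher (3) ranged from 1 to 4, host genes past the adjusted p (0) from 0 to 12 (12 without KO replicate 2), the share of sites in domains (11.2%) from 6.79% without KO replicate 1 to 20.3% without KO replicate 2, and the difference between interior and start sites (0.113) from -0.0702 without WT replicate 1 to 0.296 without WT replicate 2. For Tenm3 the log2 fold change (-0.851) ranged from -2.57 without KO replicate 2 to 0.869 without KO replicate 1.

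Filters and length limits change the number of sites, and dropping the limit on the fold can only add calls. The causes of shifts beyond these were not tested. Sites called lower numbered 6 among the 1394 higher-signal sites of the 3636, 7 in genes over 1000 kb and 0 at an adjusted p of 0.05. Sites called higher numbered 8 in genes over 300 kb, 1 in genes over 1000 kb, 0 at the adjusted p and 8 with no limit on the fold. The sets of higher signal and over 1000 kb are smaller than the main set, and that over 300 kb is larger. Their counts are therefore not comparable with the main ones as shares. Of the host genes, 7 passed an unadjusted p of 0.01. The share in domains was 4.43% with a pseudocount of 8, 6.3% after quantile normalization, 0.287% among higher-signal sites, 5.23% with windows of 51 sites and 3% with a cutoff of -1. The median log2 fold change over long-gene sites (-0.0405) lay between -0.127 and 0.0863 and was above 0 after quantile normalization, among higher-signal sites, in genes over 1000 kb and without KO replicate 1. For the named genes over these alternatives, 435 values stayed on their side of an unadjusted p of 0.05. Those not past it also stayed within 1 SE, but their sign was not checked. In the same direction, 25 passed it newly and 19 no longer passed it. A further 34, not past it, moved by 1 SE or more. Some of these changed sign, as did Pcdh9 and Robo1 without KO replicate 1. The remaining 1, that of Tenm3, changed sign and was past the threshold.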
